A study of Danio rerio with 6 samples.

Results

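By their mean level, the 38 genes described here were all but silent in the kidney marrow of one genotype and counted in that of the other. Expression is given as CPM, the reads of a gene per 1000000 reads counted in its library. A gene was taken when its mean over 3 libraries was under 0.1 CPM in one genotype and at least 1 CPM in the other, and genes on chromosome 4 or with a symbol starting ftr or zp were left out. This gave 38 of the 31484 genes counted, or 0.224% of the 16976 genes outside those exclusions that reached 1 CPM in either genotype. Of the 38, 17 were higher in tet2 -/- marrow, that is nearly silent in wild type, and 21 were lower, that is nearly silent in tet2 -/- marrow. The rule acts on means, and only 6 of the 38 genes passed both limits in every library. Since these means chose the genes, their levels are given as a description and carry no test.

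RNA was sequenced from the kidney marrow of adult zebrafish of 2 genotypes, tet2 -/- and wild type (tet2 wt/wt), with 3 replicate libraries of each. All fish were 3 to 5 months old, and every sample was dispersed by pipetting and passed through a filter of 70 microns. The labels give no allele, sex, number of fish per library or sort of the cells, and no treatment. The tet2 enzyme oxidises methylated cytosine in DNA, a step toward the removal of that mark, and its human counterpart is often mutated in blood cancers.

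Kidney marrow is where adult zebrafish make their blood, and it lies among kidney tubules, whose RNA such a sample also holds. Its blood cells include red cells, neutrophils, macrophages and lymphocytes, and its macrophages and B cells carry the class II histocompatibility molecules that show peptides to T cells. In bulk RNA, fewer cells of a type and less RNA per cell cannot be told apart.

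The libraries held between 41285460 and 49229143 counts, so 0.1 CPM corresponds to between 4.13 and 4.92 reads and 1 CPM to between 41.3 and 49.2 reads. A count of 3 reads in a library, the limit that a count of 0 allows, equals between 0.0609 and 0.0727 CPM, for counting error only. The targeted gene TET2 (ENSDARG00000076928, chromosome 1, 25662646 to 25693594) had 49.3, 45.05 and 31.9 CPM in tet2 -/- libraries 1, 2 and 3, against 44.8, 53.2 and 50.4 CPM in wild type libraries 1, 2 and 3 (log2 fold change -0.23, SE 0.20; edgeR, Benjamini-Hochberg adjusted p = 0.696). The genotypes overlapped, so its transcript level is no check of the labels. Markers of blood cells were counted in all 6 libraries. The 5 matched neutrophil markers summed to between 10555 and 20177 CPM, 6 erythroid markers to between 8373 and 15563 CPM and 8 lymphoid markers to between 354 and 498 CPM. The summed markers of tissues outside the blood differed between the libraries. The 16 egg markers summed to 728, 445 and 4390.2 CPM in the tet2 -/- libraries, against 16.2, 17.004 and 1255 CPM in wild type. All 16 egg markers were above 0 in every library. The 11 matched liver markers summed to 20.3, 1573 and 69.2 CPM in the tet2 -/- libraries, against 38.7, 536 and 109 CPM in wild type. The 9 matched tubule markers summed to between 310.04 and 429.9 CPM in the tet2 -/- libraries, against 545 to 866 CPM in wild type. Of these 9, 7 were lower in every tet2 -/- library than in every wild type library, slc12a1 overlapped, and slc12a3 had 36.7, 70.2 and 55.4 CPM in the tet2 -/- libraries, against 30.5, 58.9 and 56.6 CPM in wild type. The 7 matched muscle markers summed to between 30.4 and 74.2 CPM in the tet2 -/- libraries, against 170.3 to 225 CPM in wild type, and all but acta1b did not overlap. None of the 38 genes is on a marker list.

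In the plot of every gene by library, only 6 of the 38 genes had every library of the high genotype at 1 CPM or more and every library of the other under 0.1 CPM, 3 in each direction. The lowest high library lay above the highest low library in 35 of the 38, a count the rule nearly fixes, beside 18% of the 16976 genes at 1 CPM or more in a genotype. The exceptions were KCNS3, MPEG1 and si:ch211-57b15.1. In the low genotype 3 genes had 0 counts in all libraries, and 19 had at most 3 counts in any library. Within the high genotype the libraries were far from equal, with a median ratio of highest to lowest library of 6.42 in the 16 genes higher in tet2 -/- marrow that had counts in every tet2 -/- library and of 2.36 in the 20 lower ones with counts in every wild type library.

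**Figure D1:**
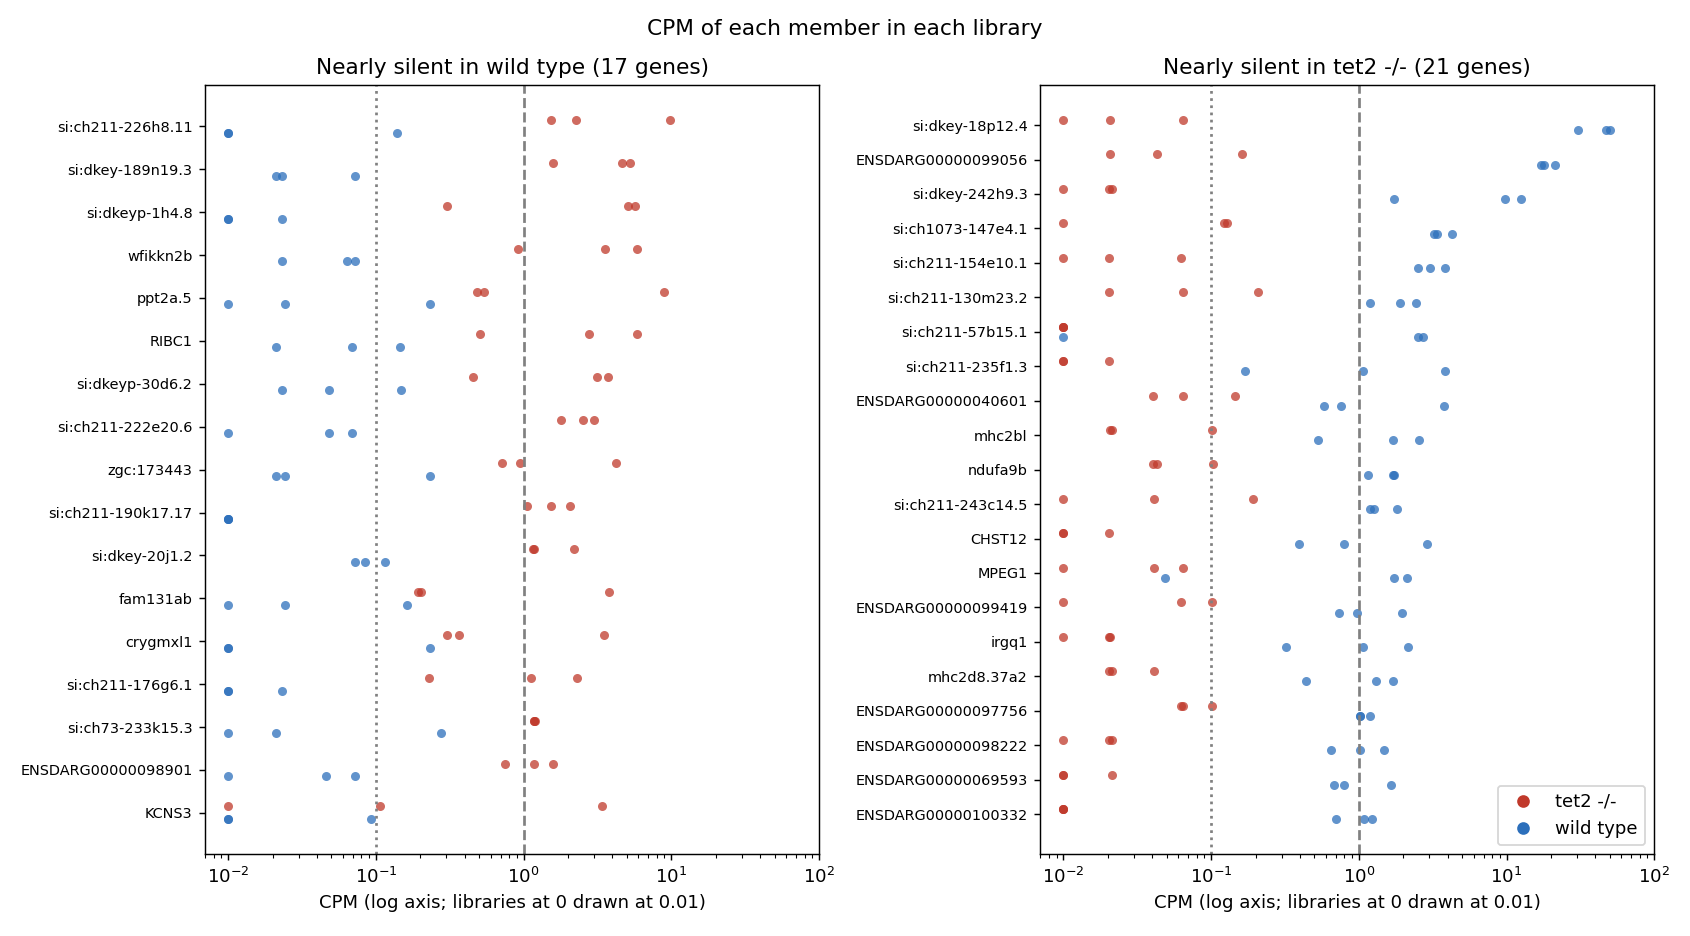
CPM of each of the 38 genes in each of the 6 libraries (points; log axis, libraries at 0 drawn at 0.01), with tet2 -/- libraries in red and wild type libraries in blue, and lines at 0.1 and 1 CPM. In 35 of 38 rows the red and blue points do not overlap, and si:dkey-18p12.4 has the highest wild type values, at 30.7, 46.8 and 49.999 CPM.

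**Figure D2:**
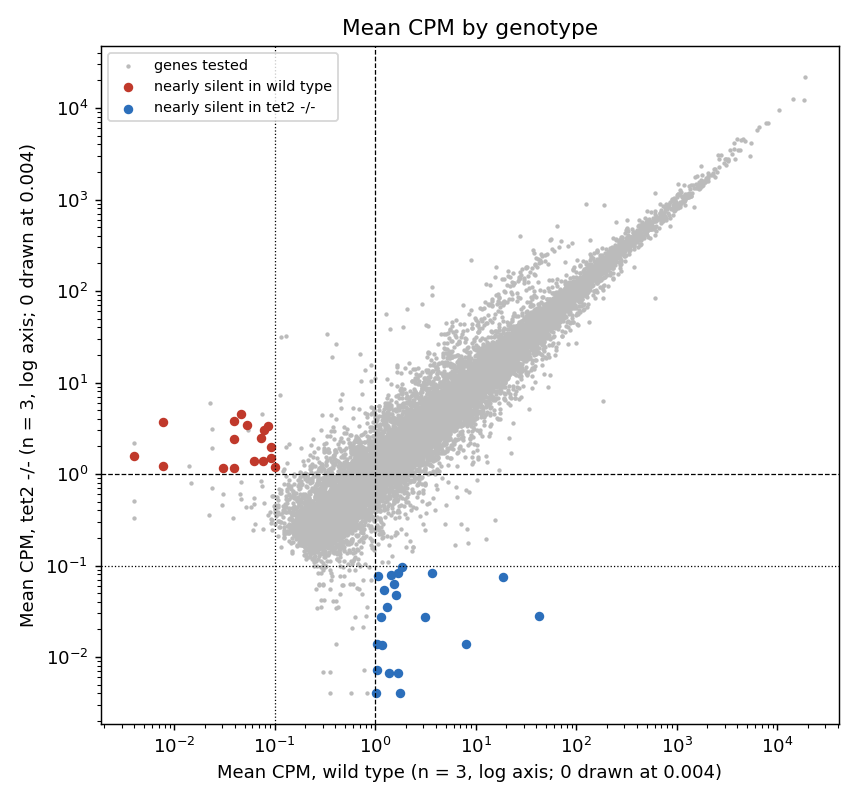
Mean CPM of each gene in tet2 -/- (vertical) and wild type (horizontal) marrow, n = 3 libraries each, on log axes with 0 drawn at the lower edge; grey points are the 21893 genes that passed the low-count filter, coloured points the 38 nearly silent genes, and lines mark 0.1 and 1 CPM. Grey points inside the same corners are genes of chromosome 4 or with an ftr symbol.

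Among the 21 genes nearly silent in tet2 -/- marrow, 6 had descriptive symbols, namely mhc2bl, mhc2d8.37a2, MPEG1, irgq1, CHST12 and ndufa9b. The summed kidney tubule and muscle markers were also lower in tet2 -/- marrow, though not each tubule marker, and their part in these 21 genes was not tested. MHC class II molecules are heterodimers that display peptides to helper T cells. The class II gene mhc2bl (ENSDARG00000074510, chromosome 8, 36332840 to 36338216) had 0.102, 0.0214 and 0.0207 CPM in the tet2 -/- libraries, against 2.54, 1.696 and 0.532 CPM in wild type. Its neighbour mhc2d8.37a2 (ENSDARG00000070206, chromosome 8, 36344572 to 36354953) had 0.0203, 0.0214 and 0.0414 CPM in the tet2 -/- libraries, against 1.69, 1.31 and 0.4396 CPM in wild type. In both genes wild type library 3 was the lowest wild type library and still lay above all 3 tet2 -/- libraries.

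The same profile appeared in mhc2dab (ENSDARG00000079105, chromosome 8, 36434337 to 36436683), a class II beta chain gene that missed the rule because its transcript was not close to absent. It had 4.63, 7.44 and 6.998 CPM in the tet2 -/- libraries, against 286, 202 and 58.2 CPM in wild type, a log2 fold change of -4.89 (SE 0.65; edgeR adjusted p = 0.0539). The alpha chain gene mhc2daa, close to it, had 345, 412 and 378 CPM in the tet2 -/- libraries, against 529.6, 489.5 and 324 CPM in wild type. The beta chain gene thus had no overlap between genotypes while the alpha chain gene overlapped. Of 13 genes with an mhc2 symbol, a set chosen after the values were seen, 5 reached 1 CPM in a genotype, and mhc2d4b, a class II gene on chromosome 4, had 79.1 ± 12.5 CPM in tet2 -/- and 92.4 ± 25.5 CPM in wild type marrow (SD, n = 3 each). The summed CPM of the 13 was 426, 512 and 454 in the tet2 -/- libraries, against 899, 817 and 460.1 in wild type.

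**Figure D3:**
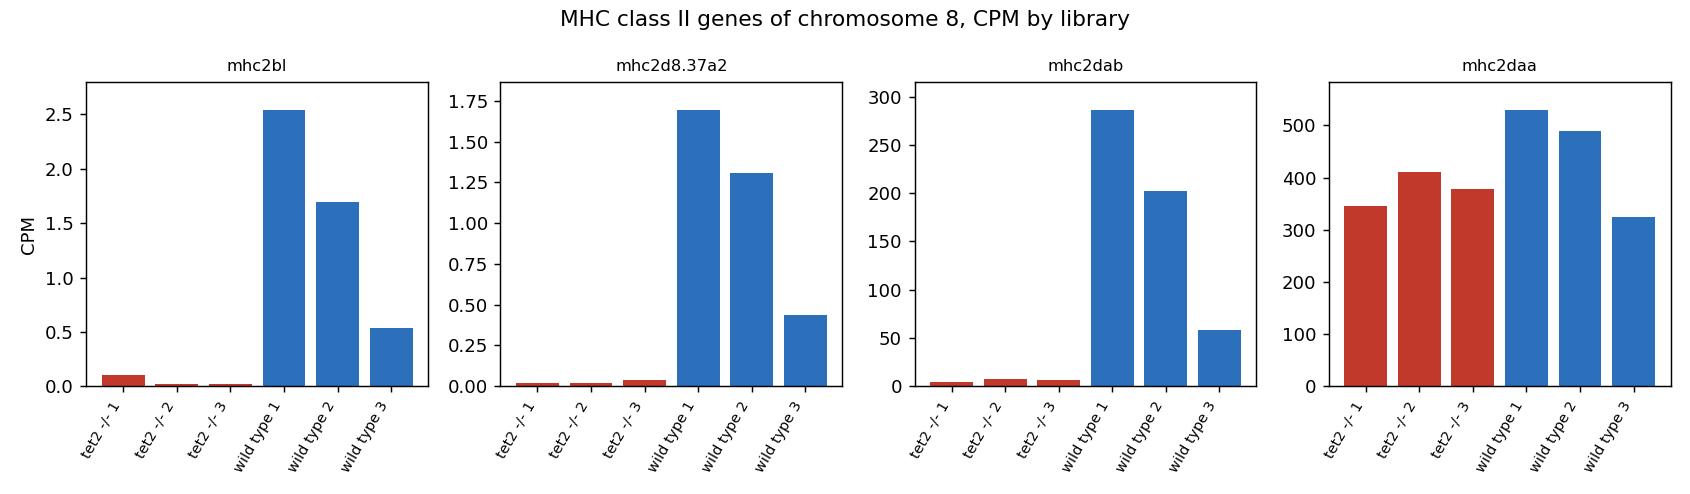
CPM of 4 class II histocompatibility genes of chromosome 8 in each library (bars; tet2 -/- in red, wild type in blue). In mhc2bl, mhc2d8.37a2 and mhc2dab every tet2 -/- bar is below every wild type bar and wild type library 3 is the lowest wild type one, whereas the mhc2daa bars overlap between genotypes.

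A copy of MPEG1 (ENSDARG00000078569, chromosome 8, 29646716 to 29648939), the gene of the pore-forming protein perforin-2 of macrophages, had 0, 0.0643 and 0.0414 CPM in the tet2 -/- libraries, against 1.74, 0.0484 and 2.11 CPM in wild type. Wild type library 2, with 2 reads, was as low as the tet2 -/- libraries, so the transcript was not present throughout wild type. Another MPEG1 copy (ENSDARG00000055290), also on chromosome 8, had 227 ± 54.9 CPM in tet2 -/- and 240 ± 31.6 CPM in wild type marrow (SD, n = 3 each), and a further one (ENSDARG00000043093) had 52.98 ± 9.77 CPM in tet2 -/- and 43.6 ± 12.0 CPM in wild type marrow. Both of these overlapped between genotypes. Reads of near-identical copies cannot be assigned with certainty, since the treatment of reads with several matches is not given in the sources used here.

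The gene irgq1 (ENSDARG00000086847, chromosome 16, 25891362 to 25897905), of the immunity-related GTPase family, had 0.0203, 0 and 0.0207 CPM in the tet2 -/- libraries, against 2.14, 1.07 and 0.324 CPM in wild type. Its neighbour irge4 had 0.223, 0.343 and 0.145 CPM in the tet2 -/- libraries, against 1.21, 1.26 and 0.532 CPM in wild type, and irgq2 on chromosome 15 had 2.07 ± 1.06 CPM in tet2 -/- and 8.374 ± 1.51 CPM in wild type marrow (SD, n = 3 each). Of 9 genes with an irg symbol, a set chosen after the values were seen, 4 had every tet2 -/- library below every wild type library. These were irgq1, whose place here the rule nearly fixes, irge4, irgq2 and irgf4. Another 4 overlapped, among them irge1, with no more than 0.0242 CPM in any library. The set was taken by symbol alone, which does not place each gene in the GTPase family. Genotypes that do not overlap, in either direction, were found in 18% of the 16976 genes, all at 1 CPM or more in a genotype. Only 5 of the 9 irg genes reached that level, so the irg count and this share are not like for like. The most abundant of the 9 by CPM, irgf1, had 31.3 ± 7.95 CPM in tet2 -/- and 28.9 ± 5.69 CPM in wild type marrow (SD, n = 3 each). On chromosome 19 irgf3 was the other way round, with 23.5 ± 8.22 CPM in tet2 -/- and 10.1 ± 4.70 CPM in wild type marrow (SD, n = 3 each). By edgeR the adjusted p was 0.183 for irge4, 0.113 for irgq2 and 0.358 for irgf3.

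The other descriptive symbols in this direction were CHST12 and ndufa9b. A CHST12 copy on the unplaced scaffold KN150193.1 (ENSDARG00000102655), named for a sulfotransferase that acts on chondroitin, had 0.0203, 0 and 0 CPM in the tet2 -/- libraries, against 2.901, 0.799 and 0.393 CPM in wild type. The CHST12 copy of chromosome 3 (ENSDARG00000028786) had 10.6 ± 1.69 CPM in tet2 -/- and 10.5 ± 1.32 CPM in wild type marrow (SD, n = 3 each), which overlapped. Of 6 copies on chromosome 1, all with means under 1 CPM, ENSDARG00000095482 averaged 0.0762 CPM in tet2 -/- and 0.617 CPM in wild type marrow. ENSDARG00000093636 averaged 0.0208 CPM in tet2 -/- and 0.228 CPM in wild type marrow. Both had no overlap and were lower in tet2 -/- marrow like the scaffold copy. The latter rests on few reads, with no more than 0.0214 CPM in any tet2 -/- library, against 0.402, 0.121 and 0.162 CPM in wild type. No overlap was found in 18% of the 16976 genes, all at 1 CPM or more in a genotype, a level these copies did not reach. The other 4 overlapped, but most of them had next to no reads. ENSDARG00000094981 had none, and ENSDARG00000092200 and ENSDARG00000077198 had no more than 0.0463 CPM in any library. ENSDARG00000092242 averaged 0.344 CPM in tet2 -/- and 0.254 CPM in wild type marrow. The single-exon gene ndufa9b (ENSDARG00000094312, chromosome 10, 8169734 to 8170475) lies in an intron of pstpip2 on the opposite strand and is named for a subunit of respiratory complex I. It had 0.0406, 0.0429 and 0.104 CPM in the tet2 -/- libraries, against 1.69, 1.72 and 1.16 CPM in wild type. The multi-exon gene NDUFA9 of chromosome 25 had 63.9 ± 5.91 CPM in tet2 -/- and 57.3 ± 6.46 CPM in wild type marrow (SD, n = 3 each). For CHST12 and ndufa9b alike, the copy with the most reads overlapped between genotypes.

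Of the 15 genes lower in tet2 -/- marrow without a descriptive symbol, 3 exceeded 5 CPM in wild type. The gene si:dkey-18p12.4 (ENSDARG00000079703, chromosome 9, 30577170 to 30581999) had 0, 0.0643 and 0.0207 CPM in the tet2 -/- libraries, against 30.7, 46.8 and 49.999 CPM in wild type, or 4 reads in all against 5545. The wild type level was 1517 times the tet2 -/- level, with a 95% counting interval from 592 to 5569.9. Per kilobase of exon it was also the highest of the 38 genes, at 24.5 CPM in wild type. An unnamed gene on the unplaced scaffold KN150683.1 (ENSDARG00000099056, 2654 to 9949) had 0.163, 0.0429 and 0.0207 CPM in the tet2 -/- libraries, against 21.3, 17.9 and 17.1 CPM in wild type. The gene si:dkey-242h9.3 (ENSDARG00000069189, chromosome 18, 19131914 to 19139062) had 0.0203, 0.0214 and 0 CPM in the tet2 -/- libraries, against 1.74, 9.74 and 12.5 CPM in wild type. In wild type the first of the 3 varied 1.63-fold between libraries and the scaffold gene 1.24-fold, while wild type library 1 had the lowest si:dkey-242h9.3 level by a factor over 5. The ratio of wild type to tet2 -/- level was 247 (138 to 495) for the scaffold gene and 561 (155 to 4642) for si:dkey-242h9.3, with 95% counting intervals in brackets. These intervals and that of si:dkey-18p12.4 pool the reads of each genotype. They cover counting error only, not the spread between libraries, and the genes were chosen by the same contrast.

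The clone-named gene ENSDARG00000096978 (chromosome 3) had 0.122, 0.129 and 0 CPM in the tet2 -/- libraries, against 4.28, 3.25 and 3.401 CPM in wild type. For the clone-named gene ENSDARG00000094605 (chromosome 5) the values were 0.0203, 0 and 0.0621 CPM in the tet2 -/- libraries, against 2.498, 3.03 and 3.86 CPM in wild type. On the same chromosome si:ch211-130m23.2 had 0.0203, 0.0643 and 0.207 CPM in the tet2 -/- libraries, against 1.19, 2.42 and 1.897 CPM in wild type. These 3 were present in every wild type library.

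By contrast si:ch211-57b15.1 (ENSDARG00000103260, chromosome 21, 29143192 to 29149433) had 0 reads in all 3 tet2 -/- libraries and also in wild type library 2, against 2.52 and 2.73 CPM in wild type libraries 1 and 3. Its pattern split wild type as MPEG1 did. The gene si:ch211-235f1.3 (chromosome 1), in an intron of FARP1, had 0.0203, 0 and 0 CPM in the tet2 -/- libraries, against 0.169, 1.07 and 3.86 CPM in wild type, and ENSDARG00000040601 (chromosome 3) had 0.0406, 0.0643 and 0.145 CPM in the tet2 -/- libraries, against 0.762, 0.581 and 3.75 CPM in wild type. Wild type library 3 was the highest for both, by 3.5 times or more over the next.

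The remaining 6 genes in this direction had means between 1.01 and 1.43 CPM in wild type. With 0 reads in all tet2 -/- libraries, ENSDARG00000100332 on scaffold KN150630.1 had 0.699, 1.24 and 1.09 CPM in wild type. Its fold bound, the pooled wild type level over that of 3 reads in the tet2 -/- group, was 47.8. This bound leaves out the spread between libraries. The gene ENSDARG00000069593 (chromosome 9) had 0, 0.0214 and 0 CPM in the tet2 -/- libraries, against 0.678, 0.799 and 1.64 CPM in wild type. On chromosome 6, ENSDARG00000098222 had 0.0203, 0.0214 and 0 CPM in the tet2 -/- libraries, against 1.48, 1.02 and 0.648 CPM in wild type, and ENSDARG00000097756 had 0.102, 0.0643 and 0.0621 CPM in the tet2 -/- libraries, against 1.19, 1.02 and 1.02 CPM in wild type. These 4 were present in each wild type library and close to 0 in each tet2 -/- library. The other members were si:ch211-243c14.5 (chromosome 11), with 0, 0.193 and 0.0414 CPM in the tet2 -/- libraries, against 1.27, 1.19 and 1.83 CPM in wild type, and ENSDARG00000099419 (scaffold KN150241.1), with 0.102, 0 and 0.0621 CPM in the tet2 -/- libraries, against 1.95, 0.969 and 0.7404 CPM in wild type.

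In the opposite direction, 6 of the 17 genes nearly silent in wild type had descriptive symbols. The gene wfikkn2b (ENSDARG00000059139, chromosome 12, 798373 to 802502), whose mammalian relative encodes a secreted binder of myostatin, had 5.89, 3.58 and 0.911 CPM in the tet2 -/- libraries, against 0.0635, 0.0727 and 0.0231 CPM in wild type. Its relatives wfikkn2a and wfikkn1 were under 1 CPM in both genotypes. RIBC1 (ENSDARG00000055739, chromosome 23, 28758725 to 28766040), whose product is known from the microtubules of cilia, had 0.508, 5.897 and 2.75 CPM in the tet2 -/- libraries, against 0.0212, 0.145 and 0.0694 CPM in wild type. The related ribc2 had 1.12, 5.06 and 1.99 CPM in the tet2 -/- libraries, against 3.28, 2.64 and 3.08 CPM in wild type. Both ribc genes were highest in tet2 -/- library 2, and only RIBC1 was near 0 in wild type. Library 2 also had the highest liver marker sum of each genotype, and within each genotype RIBC1 had the same order of libraries as that sum. The tubule marker sum had this order too. It was 310.04, 429.9 and 359 CPM in the tet2 -/- libraries, against 545, 866 and 667 CPM in wild type. In wild type the RIBC1 order rests on 1, 6 and 3 reads, under a mean that the rule held below 0.1 CPM. Between genotypes the order was not kept for either sum. Wild type library 2 had a liver sum of 536 CPM and RIBC1 at 0.145 CPM, against 20.3 and 0.508 CPM in tet2 -/- library 1. The part of liver or tubule RNA in RIBC1 was not tested.

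The 4 others, ppt2a.5, fam131ab, crygmxl1 and KCNS3, had most of their reads in tet2 -/- library 3, the library with the most egg transcripts. The gene ppt2a.5 (ENSDARG00000068846, chromosome 15, 35075583 to 35080222), named for a thioesterase that removes lipid groups in lysosomes, had 0.488, 0.536 and 8.92 CPM in the tet2 -/- libraries, against 0, 0.0242 and 0.231 CPM in wild type. For fam131ab (ENSDARG00000104296, chromosome 15, 44555015 to 44561425) the values were 0.203, 0.193 and 3.81 CPM in the tet2 -/- libraries, against 0, 0.0242 and 0.162 CPM in wild type. The gamma crystallin gene crygmxl1 (ENSDARG00000018797, chromosome 9, 22245303 to 22246789), of a family best known from the eye lens, had 0.305, 0.365 and 3.499 CPM in the tet2 -/- libraries, against 0, 0 and 0.231 CPM in wild type. KCNS3 (ENSDARG00000029511, chromosome 20, 14218278 to 14222316), which encodes a modulatory subunit of voltage-gated potassium channels, had 0, 0.107 and 3.395 CPM in the tet2 -/- libraries, against 0, 0 and 0.0925 CPM in wild type. In each of these 4, wild type library 3 was also the highest wild type library, and in KCNS3 tet2 -/- library 1 had no read.

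The clone-named genes zgc:173443 and si:ch211-226h8.11 shared this profile. The level of zgc:173443 (chromosome 10, 8119269 to 8121037) was 0.711, 0.943 and 4.22 CPM in the tet2 -/- libraries, against 0.0212, 0.0242 and 0.231 CPM in wild type, and that of si:ch211-226h8.11 (chromosome 22, 25189678 to 25222932) was 2.28, 1.54 and 9.83 CPM in the tet2 -/- libraries, against 0, 0 and 0.139 CPM in wild type. These 6 genes are those with over 3 times the CPM in tet2 -/- library 3 that either other tet2 -/- library had, a limit set after the values were seen. All 6 had their highest wild type value in library 3, as the plot of these genes beside the egg markers shows. The part of egg RNA in these levels was not tested. The rule itself held their wild type mean under 0.1 CPM, so how far they follow the egg markers in wild type cannot be read from them.

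**Figure D4:**
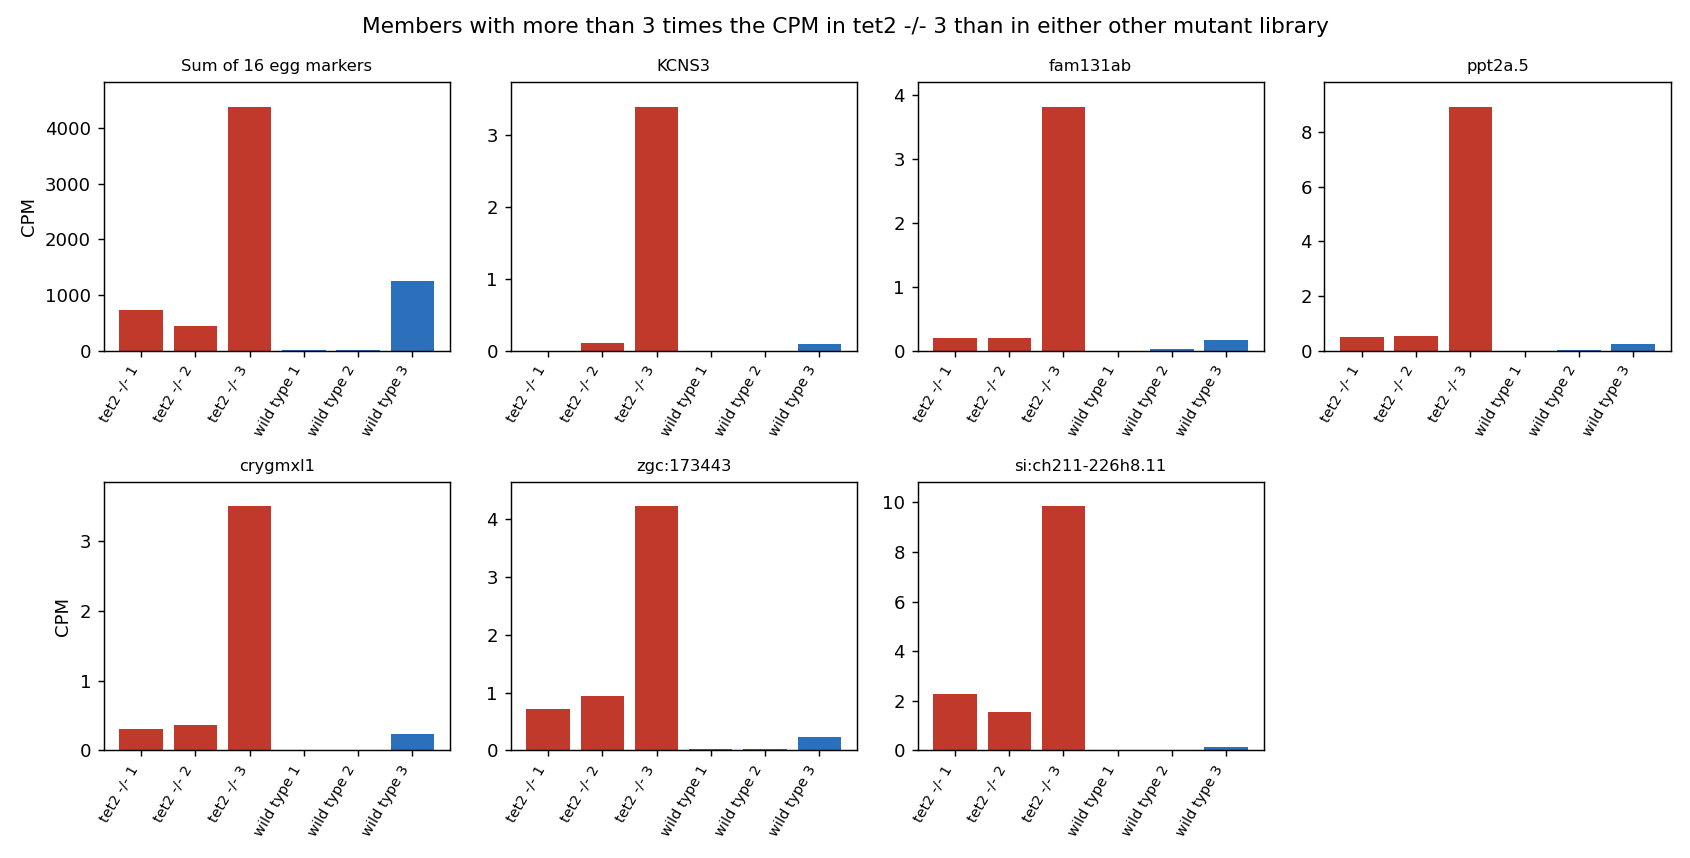
Summed CPM of the 16 egg markers and CPM of the 6 genes with over 3 times the level in tet2 -/- library 3 that either other tet2 -/- library had, in each library (bars; tet2 -/- in red, wild type in blue). Egg markers reach 4390.2 CPM in tet2 -/- library 3 and 1255 CPM in wild type library 3, and all 6 genes are highest in the same libraries of their genotype.

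A further 9 genes nearly silent in wild type had other profiles. Most even was si:ch73-233k15.3 (chromosome 3), with 1.18, 1.201 and 1.18 CPM in the tet2 -/- libraries, against 0.0212, 0 and 0.278 CPM in wild type. The clone-named gene ENSDARG00000093929 (chromosome 10) had 1.79, 2.51 and 3.002 CPM in the tet2 -/- libraries, against 0, 0.0484 and 0.0694 CPM in wild type. On chromosome 2, si:ch211-190k17.17 had 1.06, 1.54 and 2.07 CPM in the tet2 -/- libraries and 0 reads in all 3 wild type libraries. Its fold bound, the pooled tet2 -/- level over that of 3 reads in the wild type group, was 68.2. This bound leaves out the spread between libraries. These 3 genes were above 1 CPM in each tet2 -/- library.

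The gene si:dkey-20j1.2 (chromosome 3) had 1.16, 1.18 and 2.19 CPM in the tet2 -/- libraries, against 0.0847, 0.0727 and 0.116 CPM in wild type. The gene si:dkey-189n19.3 (chromosome 2) had 4.61, 5.27 and 1.59 CPM in the tet2 -/- libraries, against 0.0212, 0.0727 and 0.0231 CPM in wild type. The scaffold gene ENSDARG00000098901 (KN150332.1) had 1.58, 1.18 and 0.745 CPM in the tet2 -/- libraries, against 0, 0.0727 and 0.0463 CPM in wild type. All 3 were present in every tet2 -/- library, with si:dkey-189n19.3 and ENSDARG00000098901 lowest in library 3.

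Library 3 was low rather than high in others. The gene si:dkeyp-30d6.2 (chromosome 3) had 3.15, 3.75 and 0.455 CPM in the tet2 -/- libraries, against 0.148, 0.0484 and 0.0231 CPM in wild type, and si:ch211-176g6.1 (chromosome 12) had 2.295, 1.11 and 0.228 CPM in the tet2 -/- libraries, against 0, 0 and 0.0231 CPM in wild type. In all, tet2 -/- library 3 was the lowest of its genotype in 5 of the 17 genes and the highest in 10. The gene si:dkeyp-1h4.8 (chromosome 18) had 0.305, 5.103 and 5.67 CPM in the tet2 -/- libraries, against 0, 0 and 0.0231 CPM in wild type, so there tet2 -/- library 1 stood low.

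The genes were spread over the genome. On build GRCz10, 33 lay on 17 of the 24 chromosomes considered, and the other 5 on 5 unplaced scaffolds, 4 of them lower in tet2 -/- marrow. Scaffolds thus held 13.2% of the 38 genes, beside 1.42% of the 16976 genes at 1 CPM or more in a genotype, which were not matched for level. Chromosome 3 had the most, with 5 (3 higher and 2 lower in tet2 -/- marrow), out of 1014 such genes on it. The 3 genes of chromosome 8 were all lower.

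Neighbours within 1 Mb, counted from start to start, formed 4 pairs. The class II genes mhc2bl and mhc2d8.37a2 stood 11732 bases apart with none of the 16976 genes starting between them. On chromosome 9, ENSDARG00000069593 and si:dkey-18p12.4, both lower in tet2 -/- marrow, stood 177521 bases apart with 8 such genes between. On chromosome 12, si:ch211-176g6.1 and wfikkn2b, both higher and both lowest in tet2 -/- library 3, stood 165879 bases apart with 3 between. On chromosome 10, zgc:173443 and ndufa9b went in opposite directions, 50465 bases apart with 2 such genes starting between. The levels of both these genes overlapped between genotypes. SUB1, which lies between the pair, had 109.9 CPM in tet2 -/- and 115.4 CPM in wild type marrow. The other, pstpip2, whose span holds ndufa9b, had 63.8 CPM in tet2 -/- and 59.3 CPM in wild type marrow.

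Around the 38 genes, 136 other genes at 1 CPM or more in a genotype lay within 100 kb, next to 31 of the 38. Of these neighbours 12 (8.82%) differed 4-fold or more between the genotype means after adding 0.1 CPM to each, beside 2.13% of the 16976 genes. In 11 of the 12 the direction was that of the nearest of the 38. The 12 lay next to only 6 of the 38 genes, with 5 at si:ch211-226h8.11 and 3 at zgc:173443, and 5 of the 12 overlap the span of the nearest of the 38, so the share rests on few places in the genome. The groups did not overlap in 33 of the 136 (24.3%, beside 18% of the 16976). By edgeR 0 of the 136 passed an adjusted p of 0.05, where 0.301% of 21893 genes tested passed. The unadjusted p was under 0.05 for 27 of the 136, beside 2612 of the 21893. Blocked on replicate number, edgeR called 9 of the 136, beside 2.14% of genes tested, and DESeq2 called 14, beside 4.13%. Whether neighbours differ from other genes in these shares was not tested.

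Next to si:dkey-18p12.4, asb11, which encodes a substrate adaptor of ubiquitin ligases, had 0.325, 0.407 and 0.124 CPM in the tet2 -/- libraries, against 2.67, 6.54 and 12.1 CPM in wild type (log2 fold change -4.59, SE 0.70; edgeR adjusted p = 0.0670). Its groups did not overlap, while the gene between them, PIGA, had 15.7 ± 0.473 CPM in tet2 -/- and 15.6 ± 0.964 CPM in wild type marrow (SD, n = 3 each). On chromosome 22, si:ch211-226h8.4, whose span overlaps that of si:ch211-226h8.11 in part, had 27.9, 21.6 and 224 CPM in the tet2 -/- libraries, against 0.212, 0.194 and 10.7 CPM in wild type. In that stretch lay 4 more of the 12. On chromosome 10, si:ch211-251f6.6 beside zgc:173443 had 2.68, 2.81 and 16.3 CPM in the tet2 -/- libraries, against 0.0847, 0.0484 and 0.208 CPM in wild type, which missed the rule by its mean of 0.114 CPM in wild type. Overlapping its span on the same strand, zgc:136254 had 47.3, 27.5 and 361 CPM in the tet2 -/- libraries, against 0.593, 0.460 and 61.8 CPM in wild type. The span of si:ch211-251f6.7, on that strand too, covers both, so they are not separate places in the genome. The genes si:ch211-226h8.4, si:ch211-251f6.6 and zgc:136254 were all highest in libraries 3, as the egg markers were. The part of egg RNA in them was not tested. The exception to the shared direction was si:ch211-76l23.5 near si:dkey-20j1.2, with 0.230 ± 0.110 CPM in tet2 -/- and 1.59 ± 0.303 CPM in wild type marrow (SD, n = 3 each).

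In structure, the 38 genes were short, with a median exonic length of 1452 bases and a median of 4 separate exon blocks, beside 2377 bases and 9 blocks over the 16976 genes. A descriptive symbol was found for 12 of the 38 (31.6%), beside 82.3% of the 16976. Another 18 had clone-based names and 8 had none. The mean of the 38 in their high genotype had a median of 1.57 CPM, and the 16976 genes were not matched to that level. The span of another gene overlapped 11 of the 38, and 5 shared exonic bases with another gene, 3 of them on the same strand. The largest shares of exonic length were 21.3% for si:dkey-20j1.2, with GSG1L on the opposite strand, 14.8% for si:ch73-233k15.3, with apol on the opposite strand, and 13.2% for zgc:173443, with si:ch211-251f6.7 on the same strand. For ppt2a.5 it was 10.3%, with ppt2a.1 on the same strand. Reads in these parts are of uncertain origin. The ppt2a.1 gene had 3.84, 1.501 and 30.9 CPM in the tet2 -/- libraries, against 0.466, 0.363 and 7.27 CPM in wild type, so it too was highest in libraries 3.

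By family, 22 groups of genes listed by symbol, such as MHC class I, chemokines, zinc fingers, solute carriers and ribosomal proteins, held 848 genes at 1 CPM or more in a genotype. Of the 38, crygmxl1 alone belonged to them, among 9 crystallin genes at that level, which makes 0.118% of the 848, beside 0.224% of the 16976. The difference between these shares was not tested. The lists include neither MHC class II nor irg genes. The MHC class I list had 0 of 15, the chemokine list 0 of 35, the zinc finger list 0 of 197 and the solute carrier list 0 of 318.

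Values that did not take part in the choice came from applying the rule to 5 libraries and looking the resulting genes up in the one left out. The shares set beside the counts are over genes chosen by their mean in the other genotype alone. A gene near 0 in the other libraries of a genotype is likely to be low in the one left out. The counts and shares are therefore a description and no test. When tet2 -/- libraries 1, 2 and 3 were left out in turn, 13 of 21, 18 of 25 and 16 of 23 genes chosen as nearly silent in tet2 -/- marrow were under 0.1 CPM in that library, where 0.225%, 0.164% and 0.152% of the 16441 genes at 1 CPM or more in wild type were. With wild type libraries 1 and 2 left out, 11 of 15 and 11 of 17 genes chosen as nearly silent in wild type were under 0.1 CPM in that library, beside 0.969% and 0.859% of genes. Some chosen genes had 1 CPM or more in the library left out. They numbered 0, 3 and 0 for tet2 -/- libraries 1, 2 and 3, and 2 and 3 for wild type libraries 1 and 2. Wild type library 3 had far more of these. Without it the rule took 122 genes as nearly silent in wild type, of which 76 had 1 CPM or more and 10 were under 0.1 CPM in library 3, beside 0.128% of genes. It was also the wild type library with the highest egg marker sum, whose part in these counts was not tested. Leaving it out brought the whole set to 140 genes, 33 of the 38 among them.

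**Figure D5:**
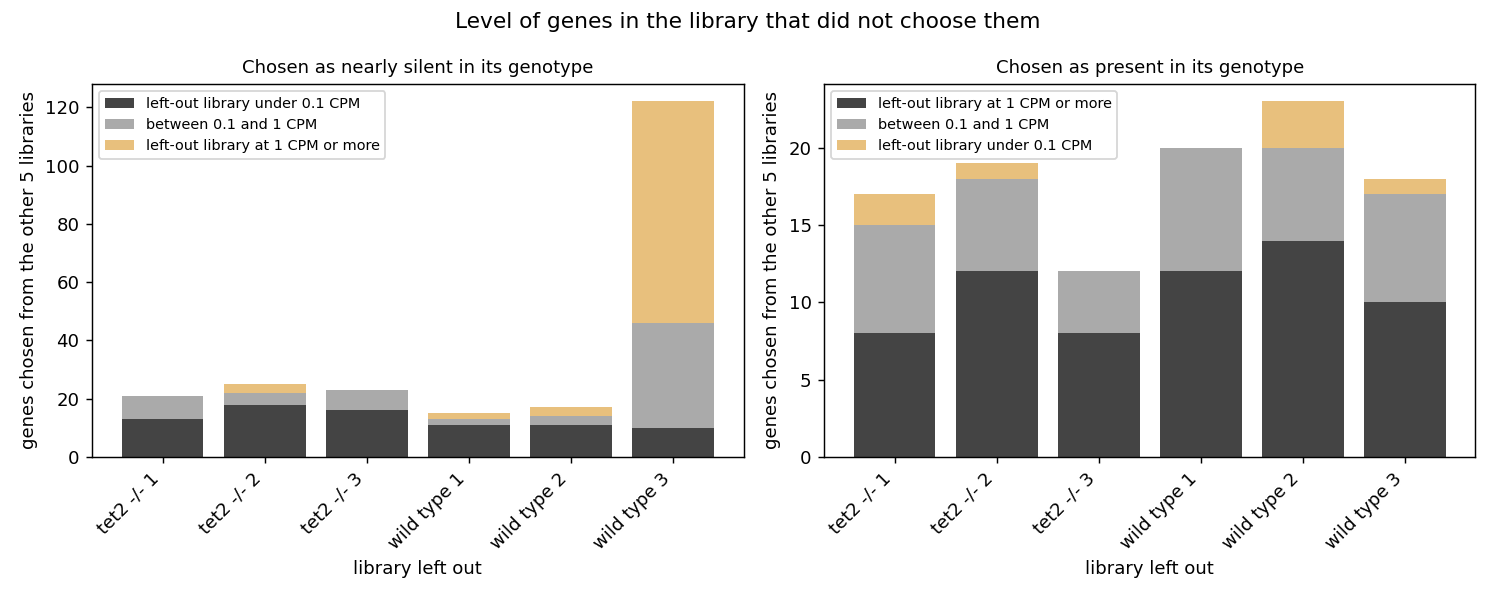
Number of genes chosen by the rule from 5 libraries, split by their level in the library left out (horizontal axis), for genes chosen as nearly silent in its genotype (left) and as present in it (right). With wild type library 3 left out, 76 of 122 genes chosen as nearly silent in wild type had 1 CPM or more in it.

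On the side of presence, the genes of each round that were chosen as present in a genotype were looked up in its left-out library. Here too the shares take no account of the level in the other libraries of the same genotype. At 1 CPM or more were 8 of 17, 12 of 19 and 8 of 12 for tet2 -/- libraries 1, 2 and 3, and 12 of 20, 14 of 23 and 10 of 18 for wild type libraries 1, 2 and 3, beside shares between 0.210% and 0.460% of the genes nearly silent in the other genotype. Under 0.1 CPM were 2, 1 and 0 genes for tet2 -/- libraries 1, 2 and 3, and 0, 3 and 1 for wild type libraries 1, 2 and 3. Of the 38 genes, 14 were chosen in all 6 rounds, with si:dkey-18p12.4, si:ch211-190k17.17, mhc2bl, ndufa9b and wfikkn2b among them. So was si:ch211-57b15.1, although it had 0 reads in wild type library 2. ENSDARG00000100332, with 0 reads in all tet2 -/- libraries and a wild type mean of 1.01 CPM, was chosen in 4. A mean close to a limit can drop a gene from a round, so rounds do not measure agreement between libraries. The genes chosen least often, in 3 rounds, were crygmxl1, ppt2a.5 and zgc:173443.

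The limits of 0.1 and 1 CPM cut through a continuous range. Just inside the lower limit lay si:ch73-233k15.3, with a wild type mean of 0.0996 CPM, and si:ch211-130m23.2, with a tet2 -/- mean of 0.0972 CPM. Just outside it lay srcin1b, with 1.20 CPM in tet2 -/- and 0.101 CPM in wild type marrow, and ENSDARG00000068018, with 0.109 CPM in tet2 -/- and 1.33 CPM in wild type marrow. At the upper limit KCNS3 was just inside with 1.17 CPM in tet2 -/- marrow and ENSDARG00000100332 with 1.01 CPM in wild type, while ENSDARG00000097598, at 0.863 CPM in tet2 -/- marrow, and KCNJ5, at 0.905 CPM in wild type, were just outside.

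In the fit over all genes, 66 of 21893 genes (0.301%) passed a Benjamini-Hochberg adjusted p of 0.05 in edgeR's quasi-likelihood test. Of the 38 genes 33 passed its filter on low counts and 13 were called, 4 higher (beside 0.0959% of genes tested) and 9 lower (beside 0.206%) in tet2 -/- marrow, but the rule used the same contrast, so this count supports nothing. Blocked on replicate number 31 were called, beside 2.14% of genes tested, and by DESeq2 33, beside 4.13%. Leaving out single libraries gave between 1 and 4 calls among the 38, which were 2, 1 and 4 without tet2 -/- libraries 1, 2 and 3, and 2, 1 and 3 without wild type libraries 1, 2 and 3. Over all genes tested, those fits called 2, 2 and 11 genes without tet2 -/- libraries 1, 2 and 3. They called 6, 3 and 15 without wild type libraries 1, 2 and 3. Each of them tested between 22340 and 22648 genes. Of the 38, only si:dkey-18p12.4 was called in all 6 of those fits.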

How the data were processed

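Each of the 6 libraries has 1 deposited table of unnormalized counts, whole numbers of reads for each Ensembl gene ID, with the gene's position, strand and exonic length, per the file headers. Per the submitters' processing notes, Trimmomatic 0.36, STAR 2.5.2b and the build GRCz10 were used. How reads were counted, on which strand and against which annotation is not stated there. A table of gene names gave symbols for 81.8% of the gene IDs.

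CPM values are counts over the library total. Differential expression was computed in R 4.3.3 with edgeR 4.0.16 (filterByExpr, TMM factors, quasi-likelihood F test, two-sided, genotype only), checked on simulated data; 21893 genes were tested and 9591 were not. Each SE given is the absolute log2 fold change over the square root of the F statistic of that test. Alternatives were DESeq2 1.42.0, other size factors, no filter, a replicate block, each library left out, other limits for the rule, and no exclusions. Fold bounds pool the reads of each genotype, take 3 reads over the group that had none, and leave out the spread between libraries. No 2 libraries of a genotype were copies (chi-square per degree of freedom 56.4 or more).

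The labels number replicates 1 to 3 in both genotypes without saying what a number shares. Over 17563 genes, each library's departures from its genotype's mean log2 CPM correlated with r = 0.402, 0.591 and 0.712 for same-numbered libraries and between -0.555 and 0.189 for others. Departures from a genotype's own mean offset one another, so a high r for same numbers by itself lowers r for the others. The pairing is read from the data, and libraries 3 also hold the highest egg marker sums of their genotypes. The p-values set the difference between genotypes against the spread between these libraries. In the main fit, by genotype only, what same-numbered libraries share stays in that spread.

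The genes and lists were chosen with earlier results of these data known. All 38 genes are named. Named besides are genes at the limits of the rule, TET2, and, chosen after their values were seen, neighbours and related copies. Marker lists covered 7 tissues or cell types.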

Additional observations from a re-analysis of the deposited data

How the results depend on the processing

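The set of 38 genes depends on its limits. It held 21 genes with a low limit of 0.05 CPM and 64 with 0.2 CPM, 82 with a high limit of 0.5 CPM and 13 with 2 CPM, and 6 when every library had to pass its limit. With TMM-scaled CPM it held 39, all 38 among them, and with chromosome 4, ftr and zp genes kept in 46. Leaving out single libraries gave between 35 and 140 genes, the highest without wild type library 3. Without both libraries numbered 3, a choice made after seeing the data, it held 84 genes (65 higher and 19 lower in tet2 -/- marrow), and 48 of those 65 had 1 CPM or more in wild type library 3. The cause was not tested.

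Over all genes, edgeR called 66, the replicate block 468, DESeq2 999, and fits without single libraries between 2 and 15. Of the 38 genes the block called 31, DESeq2 33, and fits without single libraries between 1 and 4, against 13. Other size factors or no low-count filter left 13. All 329 refitted log2 fold changes of the 33 fitted genes kept their sign, which the choice of genes largely fixes. At these depths a mean under 0.1 CPM rests on fewer than 5 reads per library on average, although single libraries of the low genotype reached 12 reads.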

Other observations

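The exclusions of the rule removed 8 genes, 7 on chromosome 4 and ftr80 on chromosome 13. Of these, 7 were higher in tet2 -/- marrow and 1 was lower. The finTRIM gene ftr80 had 3.08 CPM in tet2 -/- and 0.0239 CPM in wild type marrow, and si:ch73-158p21.5 on chromosome 4 had 6.01 CPM in tet2 -/- and 0.0225 CPM in wild type marrow. The lower one, si:ch211-215p11.5, had 0.0277 CPM in tet2 -/- and 1.14 CPM in wild type marrow.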
